A study of Mus musculus with 8 samples.

Results

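Cells carry a set of proteins that detect foreign or misplaced DNA and RNA, and 10 of their genes are described here. They were chosen by name: Ddx58, Ifih1, Dhx58, Tlr3, Mavs, Cgas, Sting1, Zbp1, Eif2ak2 and Adar. All 10 were found, 1 row each, among the 22274 genes of the deposited table. The names are those of the table, in which Ddx58 is the gene also called Rigi.

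The RNA sequencing libraries come from RFB, a mouse kidney line labelled as fibroblasts. TGF-β, which drives matrix production in fibroblasts, was given to all 8 samples, so no group shows cells without it. The control group of 4 samples received TGF-β only, and the other 4 received TGF-β and chaetocin, a fungal compound used as an inhibitor of SUV39 enzymes, which methylate lysine 9 of histone H3. The sources used here give no dose, time or number of separate cultures, so the p-values rest on a spread between samples that may be technical. Suv39h1 knockdown is mentioned in the series' design text and by no label of these samples. The series title asks about Suv39h1, 1 gene of that enzyme family, and the transcription of CXCL10.

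As background, RIG-I (from Ddx58) and MDA5 (from Ifih1) are cytosolic helicases that bind viral or otherwise unusual RNA and signal through MAVS on mitochondria. cGAS makes the messenger cGAMP when it meets DNA in the cytosol, and STING, in the membrane of the endoplasmic reticulum, receives that messenger. Both routes end in kinases that switch on interferon genes, and interferon in turn raises many of the sensor genes through transcription factors such as STAT2 and IRF9. TLR3 reads double-stranded RNA inside endosomes, ZBP1 binds nucleic acid in the left-handed Z form, PKR (from Eif2ak2) halts translation, and ADAR edits adenosine in double-stranded RNA so that self RNA is not sensed.

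Total counts were 20135312 to 23664084 in the control libraries, 22591935 in chaetocin replicate 1 and 14421225 to 15084876 in the other chaetocin libraries. Levels are given as CPM, counts scaled to sequencing depth, where a count of 3 equals 0.127 to 0.208 CPM depending on the library. The label was checked against markers. Of the fibroblast genes, Vim was at 1163 ± 30.2 CPM and Col1a1 at 232.9 ± 10.6 CPM in the control group (SD, n = 4), but Lum had 0 to 1 counts and Dcn 1 to 4 counts per control library. Epithelial Cdh1 and Krt8 stood at 650.5 ± 8.1 and 1582 ± 29.6 CPM there, so the markers do not match the fibroblast label alone. The control library numbered 2 often ranked highest in these genes, in some by a small margin. It had the highest value of its group for Ddx58, Ifih1, Dhx58, Zbp1, Eif2ak2 and Adar, 6 of the 10, and the lowest for 0. Values without it are given below for the sensor genes in which it was highest and for Stat2, Irf9, Irf7, Usp18 and Cxcl10.

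Promoter windows of 3 members hold the core of the interferon-stimulated response element, and these are shown. STAT2 and IRF9 complexes are known to bind that element. Dhx58, Sting1 and Zbp1 had no window and were not searched. The sequences are RefSeq windows on build GRCm38.p6, from 250 bases before to 50 bases after each transcription start site. They are printed 5′ to 3′ on the gene's own strand, with the match to the motif in capitals. The motif is GAAA, any 2 bases and GAAA, read on either strand.

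Ddx58, chr4:40239796-40240075, minus strand, to 30 bases after the start: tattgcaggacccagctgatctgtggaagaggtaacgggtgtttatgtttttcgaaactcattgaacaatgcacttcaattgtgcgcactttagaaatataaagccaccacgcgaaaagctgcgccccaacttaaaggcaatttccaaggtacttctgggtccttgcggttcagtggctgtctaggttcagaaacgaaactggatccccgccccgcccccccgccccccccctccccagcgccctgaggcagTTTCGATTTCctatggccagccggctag
Eif2ak2, chr17:78882543-78882822, minus strand, to 30 bases after the start: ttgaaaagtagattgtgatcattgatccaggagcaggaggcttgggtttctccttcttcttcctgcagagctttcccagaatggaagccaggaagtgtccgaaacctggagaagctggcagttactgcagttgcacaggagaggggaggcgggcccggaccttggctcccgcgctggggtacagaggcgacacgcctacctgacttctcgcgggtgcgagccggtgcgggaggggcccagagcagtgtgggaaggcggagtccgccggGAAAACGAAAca
Ifih1, chr2:62646206-62646235, minus strand, bases 21 to 50 after the start: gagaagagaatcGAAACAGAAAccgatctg

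The match begins 3 bases into the Ddx58 transcript, where it lies on the opposite strand, 19 bases into Eif2ak2 and 33 bases into Ifih1, counting the start site as 1. A window was matched for 7 of the 10 members: Ddx58, Ifih1, Eif2ak2, Tlr3, Mavs, Cgas and Adar, the last with several windows. The motif occurred in 3 of the 7 genes, and in 446 of the 11462 genes tested below that have a window. Counted by window in place of gene, it occurred in 3.44% of all 32851. The STAT site core, TTC, any 3 bases and GAA, occurred in windows of Eif2ak2 and Adar. By gene it occurred in 963 of those 11462, and by window in 8.3% of all. The letters of the STAT site core are compared with the first motif next. Its letters can overlap those of the first motif, but in Eif2ak2 it lay before the start site and the other match after it. A match describes letters and does not show that a factor binds there.

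All 10 genes were higher with chaetocin, and in each of them the lowest chaetocin library lay above the highest control library on CPM scaled by TMM, which adjusts library sizes for composition. The helicase genes and Zbp1 rose the most, the adaptor genes Mavs and Sting1 the least, and Tlr3, Eif2ak2, Cgas and Adar lay between. The place of Zbp1 depends on the scale, since on log2(FPKM + 1) its rise was 1.31, below the 1.67 of Tlr3. Genes were tested with the quasi-likelihood F test of edgeR and Benjamini-Hochberg adjustment across 14608 genes, and called where the adjusted p was below 0.05. All 10 members passed the filter on low counts, with at least 14 counts in every library, so none entered through the chaetocin group alone. By this test 80.7% of all tested genes were called in either direction, 42.0% higher and 38.8% lower, so a called rise is common in this comparison. The balance of directions moved with the processing, to 7180 genes higher and 4514 lower under total-count scaling from 6129 and 5662. Groups that do not overlap were found in 39.0% of tested genes with chaetocin higher and in 35.7% with chaetocin lower. A called rise of at least 2-fold, met by 7 members, was found in 19.7%, and a called fall of that size, met by 0 members, in 4.88%. The median log2 fold change of the members was 1.39, against 0.02 for all tested genes. Without control library 2, all 10 were still called and 7 were at 2-fold or more, with Adar at 1.01 now above that mark on the log2 scale and Cgas at 0.98 below it. Eif2ak2 was then at 1.10.

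**Figure D1:**
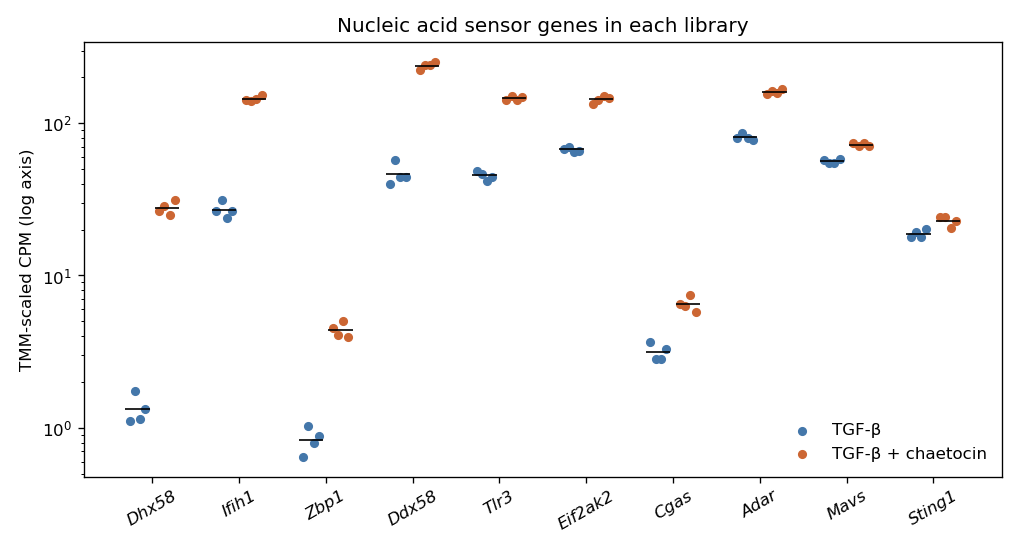
TMM-scaled CPM (log axis) of each sensor gene in the 4 TGF-β libraries (blue) and the 4 TGF-β and chaetocin libraries (orange), ordered by fold change; points are libraries and black lines are group means. Every orange point lies above every blue point of its gene, by the widest margin in Dhx58 and by the narrowest in Sting1.

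The RNA helicase receptors come first. RIG-I recognises short RNA with certain phosphorylated 5′ ends. Ddx58 stood at 39.6, 57.1, 44.4 and 44.0 CPM in control libraries 1 to 4 and at 225.1, 239.4, 240.6 and 251.7 CPM in chaetocin libraries 1 to 4. Control library 2 was the highest of its group, and the gap between the groups was still 3.94-fold at its narrowest. The fitted change was 5.18-fold, with a log2 fold change of 2.37 ± 0.06 (SE) and an edgeR adjusted p of 1.2e-23, and the log2 value was 2.47 without control library 2. On build GRCm38, Ddx58 (ENSMUSG00000040296) spans 40203773 to 40239828 of chromosome 4 on the minus strand. Like the other 9 members it is annotated as protein-coding.

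MDA5 binds long double-stranded RNA. Ifih1 was measured at 26.4, 31.4, 23.8 and 26.5 CPM in the control libraries and at 141.2, 139.6, 143.7 and 154.3 CPM with chaetocin. The chaetocin values lay close together, with a coefficient of variation of 4.58% against 11.8% in the control group. The rise was 5.36-fold (log2 fold change 2.42 with SE 0.05, edgeR adjusted p = 3.8e-25), and 2.49 on the log2 scale without control library 2. Ifih1 (ENSMUSG00000026896) spans 62595798 to 62646255 of chromosome 2 on the minus strand.

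LGP2, the product of Dhx58, is a helicase of the same family without the signalling domains of the other two, and it tunes their activity. Its gene had 24, 34, 23 and 30 counts in the control libraries and 620, 444, 374 and 492 with chaetocin, or 1.10, 1.75, 1.14 and 1.32 CPM against 26.5, 28.4, 24.9 and 31.4 CPM. Counts were low in every control library and at least 14.2-fold higher in CPM in every chaetocin library. The fold change of 20.9 (95% interval 17.9 to 24.5; log2 fold change 4.39 ± 0.12 SE; edgeR adjusted p = 1.1e-22) ranked 641st of the 14608 tested genes. Without control library 2 the log2 value was 4.53. Dhx58 (ENSMUSG00000017830) spans 100694884 to 100704271 of chromosome 11 on the minus strand, and 141 of its 3272 exon bases overlap an antisense gene.

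TLR3 samples the contents of endosomes. Tlr3 was at 48.6, 46.6, 41.9 and 44.3 CPM in the control libraries and at 141.7, 149.9, 142.9 and 149.3 CPM with chaetocin. Both groups were tight, and control library 2 was not the highest. The rise was 3.21-fold (log2 fold change 1.68 with SE 0.04, edgeR adjusted p = 2.9e-24). Tlr3 (ENSMUSG00000031639) spans 45395665 to 45411080 of chromosome 8 on the minus strand, and 381 of its exon bases overlap the antisense gene Gm45542.

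MAVS relays the signal of both helicase receptors. Mavs was at 57.6, 55.0, 54.7 and 58.0 CPM in the control libraries and at 74.0, 71.1, 73.8 and 70.8 CPM with chaetocin. This was a rise of 1.29-fold in a gene whose libraries varied by 3.08% and 2.36% (log2 fold change 0.36 with SE 0.04, edgeR adjusted p = 7.2e-10). Mavs (ENSMUSG00000037523) spans 131234063 to 131248025 of chromosome 2 on the plus strand.

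The DNA route was less abundant at its receptor. Cgas, which encodes the DNA sensor, was at 3.67, 2.83, 2.82 and 3.30 CPM in the control libraries, from 55 to 80 counts, and at 6.54, 6.26, 7.40 and 5.74 CPM with chaetocin, from 90 to 153 counts. The lowest chaetocin value was 1.56 times the highest control value. The fitted rise was 2.04-fold with an interval of 1.70 to 2.45, so whether it reached 2-fold is within the error (log2 fold change 1.03 with SE 0.13, edgeR adjusted p = 8.6e-08). Cgas (ENSMUSG00000032344) spans 78430526 to 78443237 of chromosome 9 on the minus strand. On the opposite strand the pseudogene Gm8093 overlaps 201 of its exon bases.

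STING receives the cGAS product. Sting1 was at 17.9, 19.4, 18 and 20.1 CPM in the control libraries and at 24.1, 24.1, 20.5 and 22.8 CPM with chaetocin. Chaetocin library 3 came within 1.02-fold of the highest control library, the narrowest gap of the 10 genes. The rise was 1.22-fold (log2 fold change 0.28 with SE 0.06, edgeR adjusted p = 2.2e-04). On the deposited FPKM, fragments scaled to transcript length and depth, the groups overlapped, at 7.47 to 10.6 in the control group and 9.62 to 11.8 with chaetocin. Sting1 has the identifier ENSMUSG00000024349 and lies on the minus strand of chromosome 18.

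ZBP1 detects Z-form nucleic acid and can start cell death through RIPK3. Zbp1 had 14, 20, 16 and 20 counts in the control libraries and 105, 64, 75 and 62 with chaetocin, which is 0.643, 1.03, 0.790 and 0.880 CPM against 4.49, 4.09, 5.0 and 3.95 CPM. These are the lowest counts among the members, and the groups were still 3.84-fold apart at their narrowest. The rise was 5.23-fold with a wide interval of 4.02 to 6.81 (log2 fold change 2.39 with SE 0.19, edgeR adjusted p = 8.7e-12), and 2.49 on the log2 scale without control library 2. Zbp1 (ENSMUSG00000027514) spans 173206612 to 173218923 of chromosome 2 on the minus strand.

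PKR is a kinase that double-stranded RNA activates and that phosphorylates the initiation factor eIF2. Eif2ak2 was at 68.2, 69.8, 65.1 and 65.9 CPM in the control libraries and at 133.8, 142.0, 150.8 and 146.4 CPM with chaetocin. The rise was 2.12-fold (log2 fold change 1.09 with SE 0.04, edgeR adjusted p = 1.8e-20). Eif2ak2 (ENSMUSG00000024079) spans 78852564 to 78882573 of chromosome 17 on the minus strand. On the opposite strand Gm26637 overlaps 174 of its exon bases and n-R5s29 overlaps 47.

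ADAR converts adenosine to inosine and so keeps MDA5 and PKR from sensing self RNA. Adar was at 80.0, 85.9, 80.4 and 77.1 CPM in the control libraries and at 154.7, 162.5, 158.9 and 167.1 CPM with chaetocin. The fitted fold was 1.99 with an interval of 1.90 to 2.08, just under the 2-fold mark (log2 fold change 0.99 with SE 0.03, edgeR adjusted p = 2.9e-20). Gene counts do not separate its long interferon-inducible form from its constitutive form. Adar (ENSMUSG00000027951) spans 89715022 to 89753446 of chromosome 3 on the plus strand, and 1365 of its 8118 exon bases overlap Chrnb2 on the opposite strand. Chrnb2 itself had at most 53 counts in a control library and 168 in a chaetocin library, against at least 1627 for Adar.

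**Figure D2:**
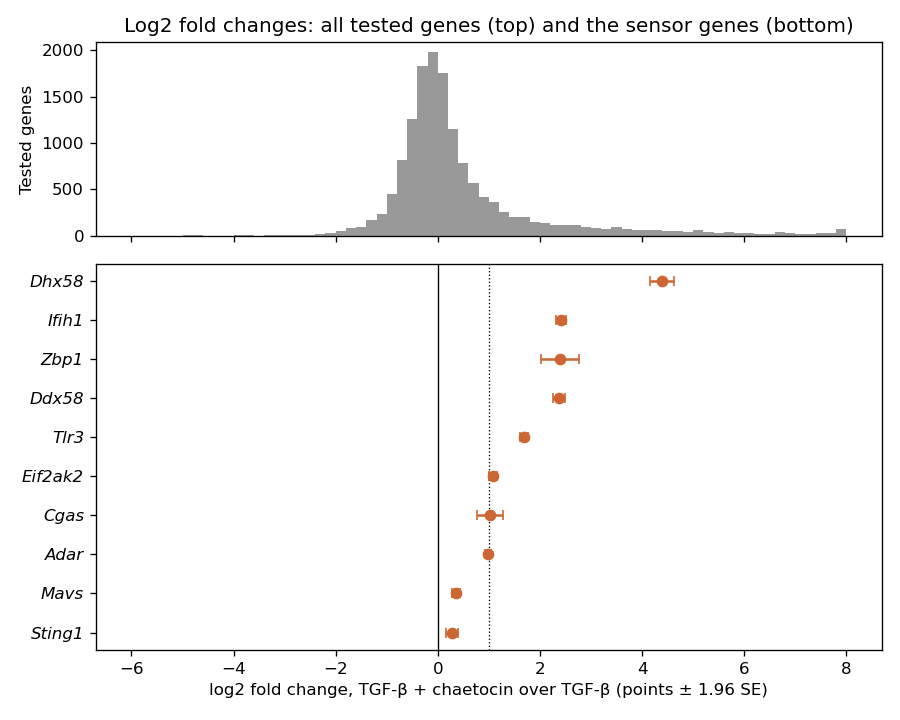
Log2 fold changes of TGF-β and chaetocin over TGF-β for all 14608 tested genes (grey histogram, end bars collecting values beyond the axis) and for the 10 sensor genes (points with 95% intervals); the dotted line marks a 2-fold rise. The sensor genes run from 0.28 for Sting1 to 4.39 for Dhx58, and the median of all genes is 0.02.

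Promoter letters and response did not run in 1 order. The log2 rises of the genes with the GAAA pair in a window were 2.37, 2.42 and 1.09 for Ddx58, Ifih1 and Eif2ak2. Those of the genes with a window but no match were 1.68, 1.03, 0.99 and 0.36 for Tlr3, Cgas, Adar and Mavs. With so few genes these values are only a description.

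Levels can be compared between genes per length, on the deposited FPKM. In the control group Mavs led at 18.4 ± 0.528 FPKM, clear of the others, and Adar, Eif2ak2 and Tlr3 followed at 15.3 ± 0.874, 15 ± 0.475 and 14.5 ± 1.65 FPKM (SD, n = 4). The ranges of those 3 neighbours overlapped, and the range of Tlr3 overlapped that of Ddx58 at 11.5 ± 1.89 FPKM. Sting1 was at 8.5 ± 1.41 and Ifih1 at 5.61 ± 0.883 FPKM. Cgas, Zbp1 and Dhx58 were at most 1.01 FPKM in every control library, at means of 0.848, 0.788 and 0.530 FPKM, with overlapping ranges between neighbours.

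With chaetocin the order changed. Ddx58 led at 64.2 ± 3.02 FPKM and Tlr3 came next at 48.2 ± 2.62 FPKM, each with a range clear of the next gene. Eif2ak2, Adar and Ifih1 overlapped between neighbours at 34.5 ± 1.79, 34.1 ± 0.902 and 32.8 ± 1.61 FPKM. Mavs, the highest of the control group, was now in place 6 at 25.5 ± 0.448 FPKM. Dhx58 moved from the lowest place to 12 ± 1.2 FPKM, overlapping Sting1 at 11 ± 0.994 FPKM. Zbp1 reached 3.44 ± 0.686 and Cgas, now lowest, 1.82 ± 0.180 FPKM. Summed over the 10 genes, TMM-scaled CPM went from 347.3 ± 16.4 to 967.8 ± 29.2 (SD, n = 4 per group).

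**Figure D3:**
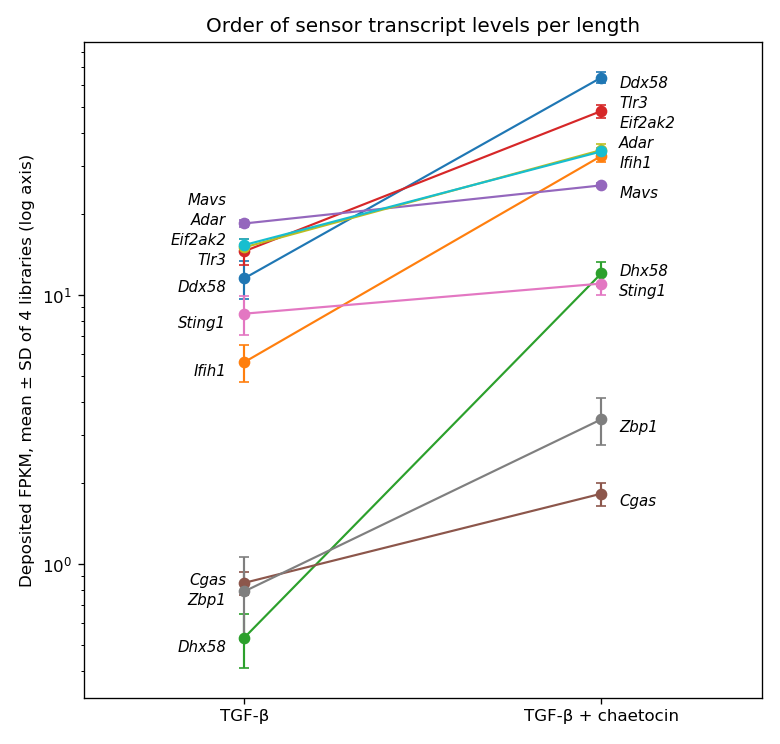
Deposited FPKM (log axis) of each sensor gene as the mean ± SD of 4 libraries in the TGF-β group (left) and the TGF-β and chaetocin group (right), joined by a line per gene. Mavs is highest on the left at 18.4 and in place 6 on the right at 25.5, while Dhx58 climbs from 0.530 to 12.

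Ratios between genes of the same library test directly whether members rose unequally, and such ratios do not depend on library scaling. The 6 pairs were compared by exact two-sided permutation tests over libraries with Benjamini-Hochberg adjustment over the pairs, where the smallest p that 4 against 4 libraries allow is 0.0286. The ratio of Ddx58 to Ifih1 did not pass the test. It was 1.5 to 1.87 in the control libraries and 1.59 to 1.72 with chaetocin (difference of log2 ratios -0.04; exact permutation adjusted p = 0.600). The chaetocin ratios lay inside the range of the control ratios, which does not show that the rises were equal.

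Dhx58 outpaced Ifih1, the 1 relative it was paired with. Its count ratio to Ifih1 was 0.0417 to 0.0557 in the control libraries and 0.174 to 0.203 with chaetocin, a difference of 1.98 on the log2 scale (exact permutation adjusted p = 0.0343). The sensor also outpaced its adaptor: the ratio of Ifih1 to Mavs was 0.435 to 0.572 in the control libraries and 1.91 to 2.18 with chaetocin, a log2 difference of 2.06 (exact permutation adjusted p = 0.0343). On FPKM this ratio went from at most 0.385 to at least 1.22, so that per length Ifih1 was below Mavs in every control library and above it in every chaetocin library. Cgas rose against Sting1 by less, from ratios of 0.146 to 0.206 to ratios of 0.251 to 0.360 (log2 difference 0.76; exact permutation adjusted p = 0.0343).

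Of the pair that binds Z-form nucleic acid, Zbp1 rose against Adar by 1.41 on the log2 scale (exact permutation adjusted p = 0.0343), and remained at most 0.0315 of the Adar count. Eif2ak2 and Adar nearly kept step. Their count ratio was 0.811 to 0.854 in the control libraries and 0.865 to 0.949 with chaetocin (log2 difference 0.10; exact permutation adjusted p = 0.0343). On FPKM the groups overlapped, with a log2 difference of 0.04 and an exact permutation adjusted p of 0.457, so that the call depends on the unit.

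**Figure D4:**
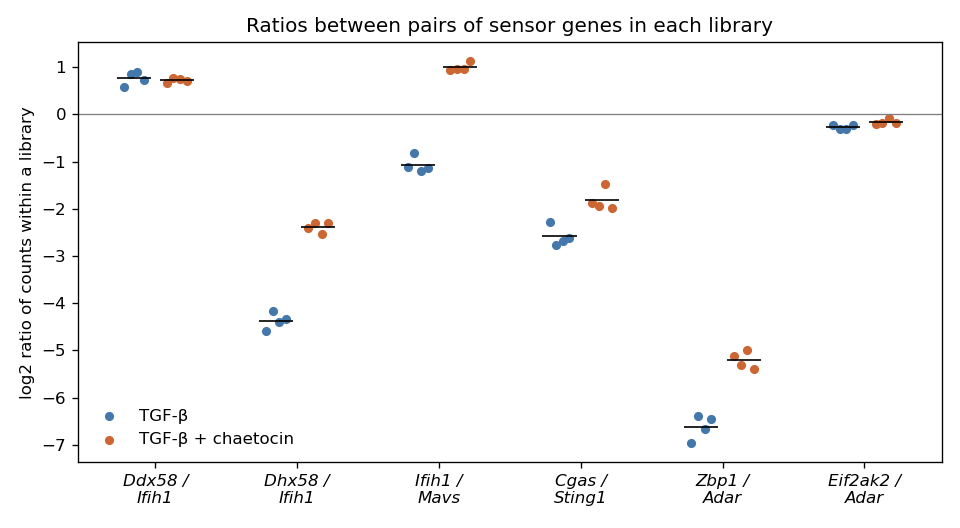
Log2 ratio of counts between pairs of sensor genes within each library, for the 4 TGF-β (blue) and 4 TGF-β and chaetocin (orange) libraries, with black lines at group means. The ratio of Ddx58 to Ifih1 overlaps between the groups, and the ratios of Dhx58 to Ifih1 and of Ifih1 to Mavs are higher with chaetocin by 1.98 and 2.06.

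The genes around the sensors were listed by role, and their counts of called genes are to be read against the 42.0% of all tested genes called higher and the 38.8% called lower. Interferon genes were scarce. Ifnb1, the interferon that these sensors typically induce in fibroblasts, had 0 counts in every control library and 0, 1, 2 and 4 counts in chaetocin libraries 1 to 4, too few to be tested. Ifnab, a type I interferon gene whose reads may be shared with close relatives, had 0 counts in every control library and 14, 10, 12 and 8 with chaetocin, at least 19.1-fold higher against a floor of 3 counts over the control group. It was the only 1 of 12 listed interferon genes to pass the filter on low counts, and it passed through the chaetocin group alone, so its counts are given as a description. The other 10 had at most 2 counts in any library.

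Stat2 and Irf9, which encode partners in a transcription factor that interferon activates, both rose. Stat2 went from 20.5 ± 3.56 to 122.3 ± 2.31 CPM and Irf9 from 23.1 ± 5.0 to 97.4 ± 5.86 CPM (SD, n = 4 per group). Their log2 fold changes of 2.59 and 2.08 (edgeR adjusted p = 5.2e-24 and 1.2e-19) lie near those of Ddx58, Ifih1 and Zbp1, and were 2.68 and 2.22 without control library 2. Without that library Irf7 and Usp18, described below, rose by 4.68 and 5.73 in place of 4.52 and 5.18. Cxcl10, the chemokine gene of the series title, rose by 1.86 on the log2 scale (edgeR adjusted p = 4.8e-17), and by 1.95 without control library 2. Suv39h1 fell by 0.21 (edgeR adjusted p = 0.0015).

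Of 23 tested genes in the relay from sensor to interferon gene, 11 rose and 9 fell, with a median log2 fold change of 0.06, near the 0.02 of all genes. Irf7, an interferon-inducible factor that amplifies interferon transcription, rose from 4.06 ± 1.12 to 92.1 ± 5.02 CPM (SD over 4 libraries each), a log2 difference of 4.52 ± 0.08 (SE) with an edgeR adjusted p of 2.5e-26. Trim25, a ubiquitin ligase linked to RIG-I activation, rose by 2.03 (edgeR adjusted p = 3.0e-24). The kinase gene Tbk1 rose by 0.31 (edgeR adjusted p = 1.1e-07), and Irf3, the factor that TBK1 phosphorylates, by 0.11 (edgeR adjusted p = 0.047) with overlapping groups. Nfkb1 and the RNA helicase gene Ddx3x fell by 0.61 and 0.44 (edgeR adjusted p = 1.1e-16 and 4.7e-15).

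**Figure D5:**
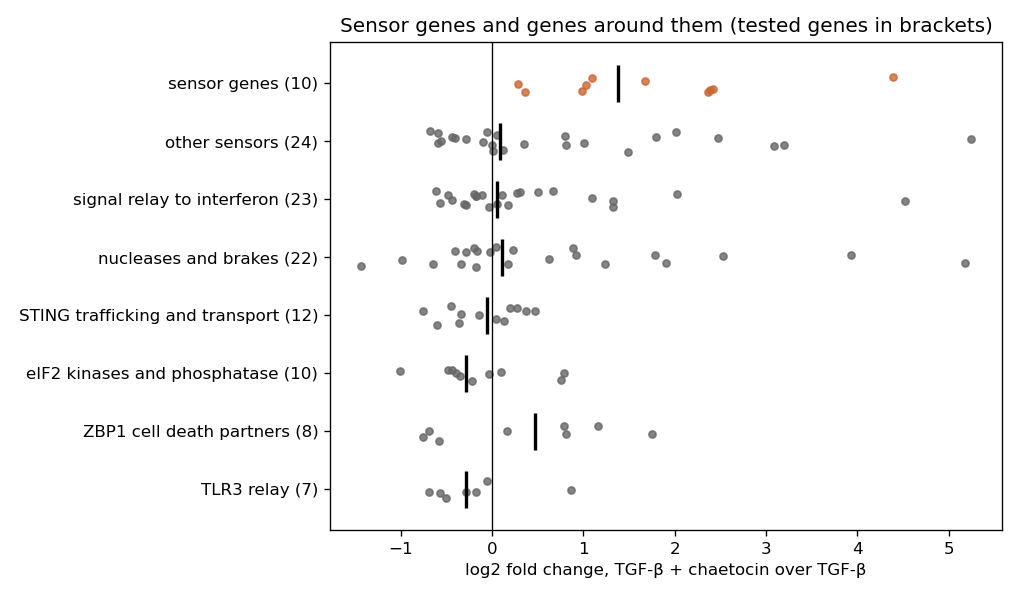
Log2 fold changes of TGF-β and chaetocin over TGF-β for the 10 sensor genes (orange) and for the tested genes of 7 lists around them (grey), with vertical bars at the medians and vertical scatter only to separate points. The sensor genes have a median of 1.39, while the relay list lies around 0.06 with Irf7 at 4.52.

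Other sensors moved in both directions. Of 24 tested, 12 rose and 7 fell, near the shares of all tested genes, with a median of 0.09. A called rise of at least 2-fold was met by 8 of the 24, against 19.7% of all tested genes. A called fall of that size was met by 0, against 4.88%. The helicase gene Ddx60 rose from 1.0 ± 0.475 to 38.4 ± 4.35 CPM and Ifi204, a member of the interferon-inducible family of DNA-binding proteins, from 7.79 ± 1.52 to 66.1 ± 5.75 CPM (SD over 4 libraries each; edgeR adjusted p = 1.1e-22 for both). The other listed genes of the Ifi204 family are named to complete it. Ifi203, Ifi205, Ifi207, Ifi209, Mndal and Aim2 rose by 2.01, 2.48, 1.80, 3.20, 1.49 and 0.80 on the log2 scale. The endosomal receptor genes differed in direction, as values chosen after they were seen. Tlr7, Tlr8 and Tlr13 fell by 0.59, 0.56 and 0.29 while Tlr9 rose by 1.01, with group means from 1.15 to 9.75 CPM. The groups of Tlr8 and Tlr13 overlapped (edgeR adjusted p = 0.011 and 0.021). On FPKM Tlr8 did not fall, at 1.01 ± 0.0618 in the control group and 1.1 ± 0.544 with chaetocin. Lrrfip1, a reported nucleic acid binder, fell by 0.41 (edgeR adjusted p = 3.9e-14).

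In the list of the relay of TLR3 and its helpers, 5 of 7 tested genes fell and 1 rose, at a median of -0.29. Of all tested genes, 38.8% fell and 42.0% rose. Lists can share genes: Traf6 is also in the relay to interferon genes, and Ripk1 is also among the partners of ZBP1. Ripk1 fell by 0.69 and Traf6 by 0.57 (edgeR adjusted p = 1.3e-15 and 7.1e-13), and Cd14, a coreceptor, rose by 0.87 (edgeR adjusted p = 1.5e-11). Among partners of ZBP1 in cell death, 4 of 8 rose and 3 fell, near the shares of all tested genes, at a median of 0.48. Mlkl, which forms pores in necroptosis, rose by 1.75 and the caspase brake Cflar by 0.79 (edgeR adjusted p = 7.8e-19 and 1.7e-19), and Casp8 fell by 0.58 (edgeR adjusted p = 3.5e-15).

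The other eIF2 kinase genes moved the opposite way to Eif2ak2. Eif2ak3, the kinase of endoplasmic reticulum stress, fell from 270.1 ± 4.26 to 134.3 ± 3.57 CPM (SD over 4 libraries each), a log2 difference of -1.01 ± 0.03 (SE) with an edgeR adjusted p of 8.2e-23. Eif2ak1 and Eif2ak4, named because they complete the family, fell by 0.35 and 0.44 (edgeR adjusted p = 1.5e-08 and 6.9e-10). In the list of kinases and their partners without PKR, 6 of 10 fell and 3 rose, against 38.8% and 42.0% of all tested genes, at a median of -0.28. Dnajc3, an inhibitor of these kinases, fell by 0.39, and the phosphatase genes Ppp1r15a and Ppp1r15b rose by 0.75 and 0.79.

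The STING trafficking list moved in both directions by small steps, with 5 of 12 higher, 6 lower and a median of -0.05, against 42.0% and 38.8% of all tested genes. Surf4, which returns STING to the endoplasmic reticulum, fell by 0.36 and Npc1 by 0.60, and Abcc1, an exporter of cGAMP, and Trappc3 rose by 0.47 and 0.37 (edgeR adjusted p at most 3.8e-10 for these 4). Among nucleases and brakes 10 of 22 rose and 9 fell, near those same shares, at a median of 0.10. Usp18, which curbs interferon receptor signalling, rose by 5.18 and Nlrc5 by 3.93 (edgeR adjusted p = 1.7e-23 and 2.8e-22). Adarb1, the other editing deaminase, fell from 35.1 ± 1.52 to 13.0 ± 0.568 CPM (SD over 4 libraries each; edgeR adjusted p = 2.0e-18), opposite to Adar, and Pcbp2, which promotes MAVS breakdown, fell by 0.40 (edgeR adjusted p = 3.8e-13).

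Sensors are abundant in leukocytes, so the markers of other cells are given beside these results. Summed marker levels are CPM by total counts, without the TMM scaling used for single genes and for the sensor sum. The summed level of 16 macrophage and leukocyte markers was 373.7 to 411.3 CPM in the control libraries and 250.3 to 293.6 CPM with chaetocin. Of the 13 tested, 8 fell and 4 rose, with log2 fold changes of -1.77 for C1qc and -2.09 for Cx3cr1, and of 0.94 for Cd68. Such counts of called markers are to be read against the 42.0% of all tested genes called higher and the 38.8% called lower. Cd3e and Siglech had 0 counts in every control library and at most 7 counts with chaetocin. The 5 endothelial markers summed to 48.8 to 54.7 CPM and to 85.7 to 93.6 CPM with chaetocin, with 4 higher, Kdr at 2.50 and Pecam1 at 0.83, and Emcn lower at -0.62. The 9 tubule markers summed to 3539 to 3674 CPM and to 6810 to 7112 CPM, with 4 higher, 4 lower and 1 not called, Krt8 at 1.19, Krt18 at 1.13 and Lrp2 at -0.68. The 10 fibroblast markers summed to 2553 to 2667 CPM and to 2102 to 2441 CPM. Of the 9 tested, 5 fell (Col1a1 at -2.01, Pdgfrb at -1.68, Vim at -1.40, Col1a2 at -0.87 and Col3a1 at -0.30), Dcn and Acta2 rose by 4.06 and 0.36, and 2 were not called. In such bulk samples a change in the number of cells of a type and a change in RNA per cell cannot be told apart, and the part of these markers in the sensor values was not tested.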

How the data were processed

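The authors deposited 1 table that pairs raw counts with FPKM for 22274 genes and 8 libraries, per the file headers. The table also holds the authors' mean FPKM per group, their log2 ratio of those means, and p-values with an FDR, per the file headers, which name no test. These last columns supplied no result here except where the authors' deposited table is named. Library preparation used a SMARTER mRNA kit, per the labels' protocols. The build was GRCm38, per the submitters' processing notes. For aligner, counting program and strand setting: not given in the sources used here. Reads from a gene and an antisense partner therefore cannot be told apart.

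Counts were tested with edgeR 4.0.16 in R 4.3.3 (filterByExpr, TMM, quasi-likelihood F test) across 14608 genes and all 8 libraries, with Benjamini-Hochberg adjustment. SE is the log2 fold change divided by the square root of F, and 95% intervals use the normal quantile. The fit was tested on simulated data. Exact permutation tests used scipy 1.17.1. Positions and overlaps come from GENCODE M21 on GRCm38. No label says that replicate numbers pair the samples. Correlations of same-numbered deviations were -0.0134 to 0.0318, and those of differently numbered ones -0.0643 to 0.0631. Such values show no pairing but cannot exclude a shared culture or preparation. Replicates were not duplicates, since chi-square averaged 2.01 to 2.53 over genes.

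Members and gene lists were chosen with earlier results of these data known. Genes named are the members, Cxcl10, Suv39h1, Ifnb1, Irf3, Irf7, Tbk1, Stat2, Irf9, the 2 called genes with the smallest p in each direction of each list, and the 3 genes nearest in profile to each of the 3 members with the largest change. Alternatives were DESeq2 1.42.0 and its size factors, total-count scaling, other filters, limma-voom and limma 3.58.1 on log2 FPKM, a replicate block, and each library left out. Some genes that this rule names are not reported here. Columns of other samples numbered 0.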

Additional observations from a re-analysis of the deposited data

Results flagged for a closer look

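In 62 groups of 4 libraries examined, 2 had a library far from the rest of its group, where chance gives about 1 in 20. The log2 count ratio of Eif2ak2 to Adar was -0.0758 in chaetocin replicate 3 and -0.209 to -0.191 in the other chaetocin libraries. Usp18 stood at 6.96 CPM in control replicate 2 against 2.11 to 2.42 CPM in the other control libraries. That library was also the highest of its group for 6 of the 10 sensor genes.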

How the results depend on the processing

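All 10 sensor genes were called higher under each of the 18 alternatives, the replicate block included, where the block left 7 genes at 2-fold or more. The number at 2-fold or more ranged from 6 to 8 over the alternatives, since Adar and Cgas lie at the threshold: under total-count scaling Adar reached 1.11 on the log2 scale, and with limma on log2(FPKM + 1) Cgas came to 0.61. That pseudocount also lowered Dhx58 to 3.08 and Zbp1 to 1.31. Under total-count scaling the median of all genes was 0.14, and limma on log2(FPKM + 1) with no filter called 8623 genes higher and 4068 lower. Ratios between genes on FPKM kept their calls except Eif2ak2 to Adar, at 0.04, as given above. With a library left out, 3 against 4 libraries allow no exact p under 0.0571, so no pair can pass, and the log2 differences then ranged from 1.91 to 2.05 for Dhx58 to Ifih1, 2.02 to 2.15 for Ifih1 to Mavs, 0.65 to 0.86 for Cgas to Sting1, 1.3 to 1.49 for Zbp1 to Adar and 0.07 to 0.11 for Eif2ak2 to Adar.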

Other observations

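Genes whose profile over the 8 libraries lay nearest to the 3 members with the largest change were sought on log2 CPM centred on each gene's mean, as a description. Nearest to Dhx58 were Oasl1, an interferon-stimulated gene, Gsta3, a glutathione transferase gene, and Kcnab1, at distances of 0.387, 0.402 and 0.417 log2 units. Nearest to Ifih1 were the cell cycle inhibitor gene Cdkn2c, Cdc14a and Zfp959, at 0.112, 0.156 and 0.179. Nearest to Zbp1 were Eid3, Misp3 and Enkur, at 0.273, 0.367 and 0.387. Any gene with a like fold change lies near by this measure.

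Over all tested genes with a promoter window, 137 of 446 with the GAAA pair motif were at least 2-fold higher with chaetocin, 30.7%, against 19.1% of all 11462. The median of the 446 log2 fold change was 0.27, against 0.02.

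The ratio of CPM, by total counts, to deposited FPKM acts as a gene length in kilobases. For Ddx58 it was 3.87 to 3.88 over the 8 libraries and for Eif2ak2 4.31 in each. For Zbp1 it ranged from 0.855 to 1.72, so its FPKM varied 2.01-fold per count, and for Sting1 from 1.83 to 2.29. In the authors' deposited table the log2 ratio of Zbp1 was 2.12, where the counts gave 2.39.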
